A study of Mus musculus with 88 samples.

Results

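The 10 genes described here are ones that cells switch on quickly under stress or growth stimulation, followed across 25 libraries of mouse total RNA: Gadd45a, Gadd45b, Gadd45g, Junb, Fos, Egr1, Atf3, Ddit3, Trib3 and Hmox1. The choice of genes was made with earlier results of these data known, and members were found by symbol. The 10 symbols matched 11 of the 55364 genes in each deposited expression table, because Ddit3 stands for 2 annotated genes (ENSMUSG00000025408.15 and ENSMUSG00000116429.1) that may share reads and whose levels are therefore uncertain. Of the 11 genes, 10 passed the filter on low values in embryonic stem cells (all except Egr1) and 8 passed it in embryos (all except Junb, Fos and Atf3). The 2 Ddit3 genes are counted apart in the numbers of genes called below, so those numbers can hold shared Ddit3 reads 2 times.

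The genes fall into 4 groups by role. Gadd45a, Gadd45b and Gadd45g encode small proteins that bind stress kinases, PCNA and cyclin-dependent kinase complexes and restrain the cell cycle after damage. Junb, Fos and Egr1 are immediate early genes, transcribed within minutes of a growth factor or stress signal without new protein synthesis; JUNB and FOS are subunits of the AP-1 transcription factor, and EGR1 is a zinc finger transcription factor. Atf3, Ddit3 (CHOP) and Trib3 belong to the integrated stress response, in which phosphorylation of eIF2alpha raises translation of ATF4, and ATF4 then activates genes for amino acid supply and, later, CHOP and the pseudokinase TRIB3, an inhibitor of AKT and of ATF4 itself. Hmox1 encodes heme oxygenase, which degrades heme and is a standard target of the oxidative stress factor NRF2. In pluripotent cells kept in inhibitors of MEK and GSK3, signalling from MEK to ERK, a main inducer of immediate early genes, is blocked.

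The study asked how newly made RNA changes when the embryonic genome is activated and what the homeobox gene Obox3 does in that process. In its first setting, male wild-type mouse embryonic stem cells (mESCs, hybrid C57BL/6 / 129) were grown on gelatin with serum and LIF. The medium also held the MEK inhibitor PD0325901 (0.5 uM) and the GSK3 inhibitor CHIR99021 (3 uM), and plasmids were delivered by lipofection. Groups of 2 libraries carried Obox3 (ES_Obox3), Obox5 (ES_Obox5), Obox6 (ES_Obox6), Dux (ES_Dux) or the empty plasmid (ES_Empty), and 9 further constructs (Obox1, Obox2, Obox4ps27, Obox4ps35, Obox7, Obox8, Crxos1, Crxos2 and Crxos3) had 1 library each. In the second setting, late 2-cell embryos of wild-type BDF1 origin were collected. Cloned embryos (SCNT, somatic cell nuclear transfer) got their nucleus from a cumulus cell, the cell type that surrounds the egg, after the egg's own was taken out. They were injected at 10 ng/ul with mRNA for Obox3 in the group SCNT_Obox3_L2C and for EGFP, a fluorescent protein, in SCNT_EGFP_L2C. Their fertilised counterparts (ICSI_L2C, labelled BDF1 x BDF1) came from sperm injected into the egg, and their labels name no injected mRNA. Each embryo group had 2 libraries. The labels do not say how many embryos were pooled, how many hours after transfection the mESCs for RNA were collected, or whether untransfected cells were removed.

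Values are TPM, a transcript abundance made by dividing reads by gene length and scaling each library to the same total, so levels of different genes can be set side by side within a library. A library with 1 read on a gene of 1 kb gave it 0.136 to 0.441 TPM in mESCs and 0.0718 to 0.198 TPM in embryos. The 10 most abundant genes took 48.9 to 73.8% of the TPM in mESCs and 57.4 to 72.6% in embryos. The transfected gene was high in its own libraries, at 451 and 263 TPM for the Obox3 copy annotated as Obox3-ps5 in ES_Obox3, 971 and 933 TPM for Obox5, 2031 and 1959 TPM for Obox6 and 1548 and 1979 TPM for Duxf3. The 10 mESC markers summed to 947 to 2548 TPM in the mESC libraries, and the 10 oocyte markers to 439 to 728 TPM in the embryos. All 10 genes are protein coding in RefSeq, whose positions on GRCm38.p6 are given where each gene is described.

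Changes were tested with limma on log2(TPM + 1), with Benjamini-Hochberg adjustment over all genes. A gene was called, and is said here to have risen or fallen, at an adjusted p under 0.05 and a log2 fold change of at least 1 in size. Fold changes on this scale understate those of low genes. Where counts at an unadjusted p under 0.05 are given, the share of all genes at that p was not counted. The median log2 fold change of all genes tested was not 0 everywhere. It was -0.42 in ES_Obox3, -0.20 in ES_Obox5, -0.09 in ES_Obox6 and -0.97 in ES_Dux against ES_Empty, and each result is therefore also given after median-ratio scaling, which divides each library by its median ratio to the average library and removes that shift.

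In mESCs the genes did not move as 1 group. Expression of Obox3, Obox5 or Obox6 went with lower Gadd45a and Junb, while integrated stress genes and Gadd45g were higher or not called. In ES_Obox3, 4 of 10 genes fell (Gadd45a, Gadd45b, Junb and Hmox1), against 13.6% of all genes, and 1 rose (Ddit3), against 4.67%. After scaling, 3 fell, against 3.75% of all genes, and 3 rose (Ddit3, Trib3 and Gadd45g), against 7.77%. In ES_Obox5, 3 fell (Gadd45a, Junb and Hmox1), against 5.47%, and 2 rose (Gadd45g and Atf3), against 4.79%. After scaling these were 2 of 10 lower, against 2.39%, and 3 of 10 higher, against 6.09%. In ES_Obox6, 2 fell (Gadd45a and Junb), against 1.99%, and 1 rose (Atf3), against 2.39%. The same counts stood after scaling, against 1.32% of all genes lower and 2.8% higher. In ES_Dux 7 fell and 0 rose, but 44.4% of all genes fell and 4.12% rose there. After scaling 2 fell in ES_Dux (Junb and Trib3), against 2.14% of all genes, and 0 rose, against 6.98%. The median log2 fold change of the 10 genes was 0.18 in ES_Obox3, 0.50 in ES_Obox5, 0.15 in ES_Obox6 and -1.51 in ES_Dux, each a mix of genes that went opposite ways except in ES_Dux. All 4 comparisons use the same 2 ES_Empty libraries. Leaving out ES_Empty replicate 1 left 3 of the 5 calls in ES_Obox3, leaving out either ES_Obox5 library left 3 of 5 there, and leaving out ES_Obox6 replicate 2 left 1 of 3.

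**Figure D1:**
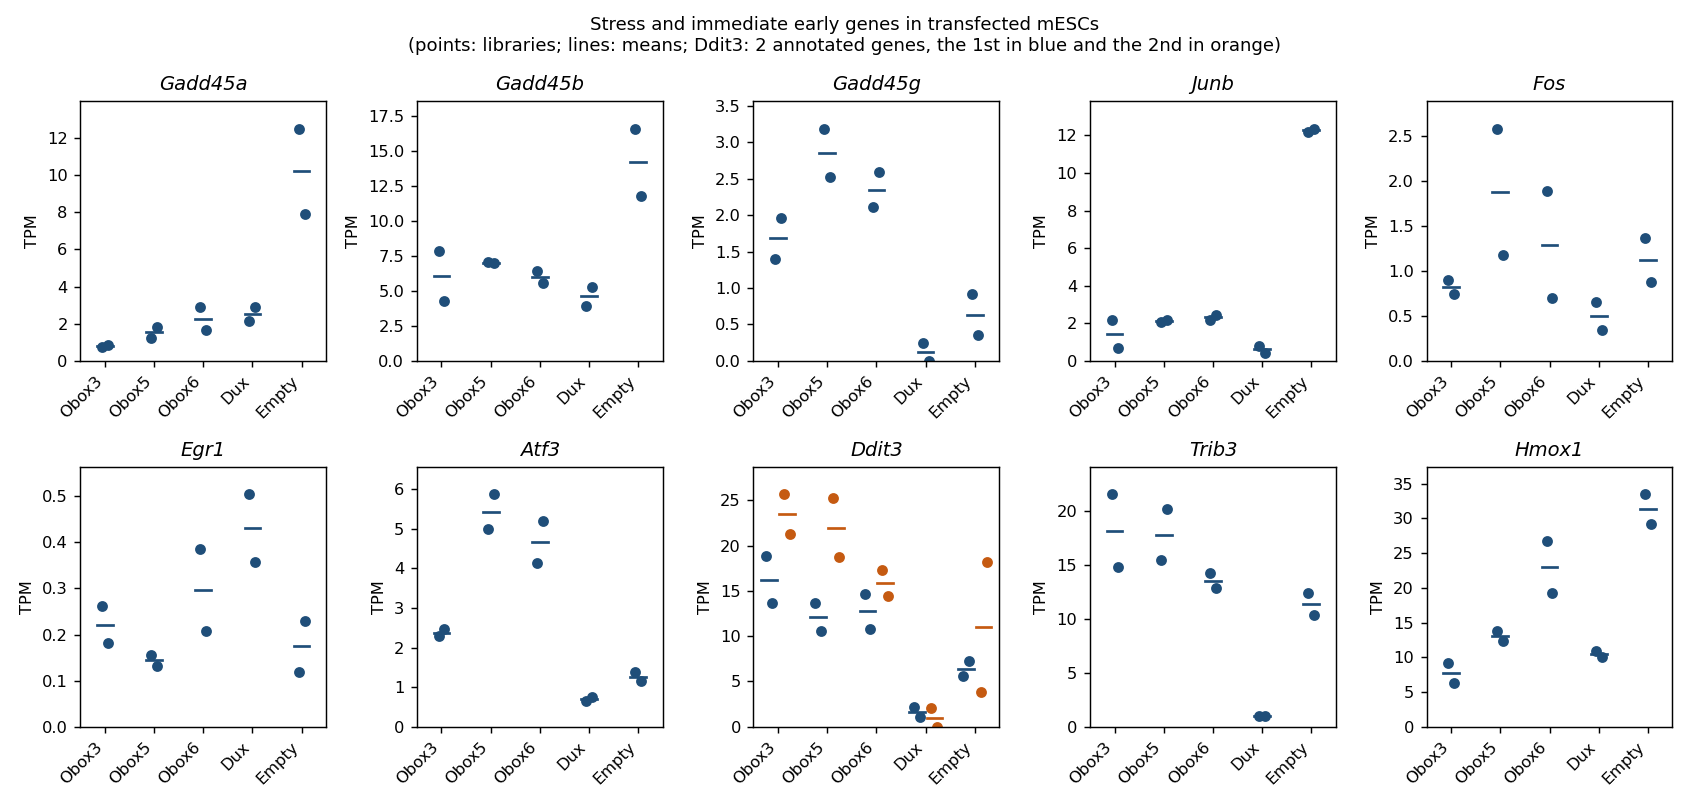
TPM (vertical axis, linear, from 0) of each gene in the 5 replicated mESC groups (horizontal axis), with a point per library and a line at the mean of the 2. Gadd45a and Junb are high in ES_Empty alone, Gadd45g and Atf3 are high with the Obox plasmids, and Trib3 is near 1 TPM in ES_Dux.

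The 3 Gadd45 genes went different ways. Gadd45a (chr6:67035096-67037407) stood at 0.730 and 0.846 TPM in ES_Obox3, 1.26 and 1.85 TPM in ES_Obox5, 2.87 and 1.66 TPM in ES_Obox6, 2.16 and 2.89 TPM in ES_Dux, and 12.5 and 7.91 TPM in ES_Empty. All 8 libraries with a homeobox gene lay below both ES_Empty libraries. The log2 fold change was -2.62 ± 0.28 (SE) in ES_Obox3 (adjusted p = 0.000465), the largest fall of the Gadd45 genes, -2.11 in ES_Obox5 (0.00193), -1.77 in ES_Obox6 (0.00848) and -1.64 in ES_Dux (0.00113). The means were 12.9-fold lower in ES_Obox3 and 6.57-fold lower in ES_Obox5 than in ES_Empty. Reads recovered from the TPM of Gadd45a were few, at 5.5 and 11 in ES_Obox3 and 9.5 and 16.5 in ES_Obox5. In ES_Empty they were 82 and 68. After scaling the change in ES_Dux was -0.46 and no longer called, while those in ES_Obox3, ES_Obox5 and ES_Obox6 were -2.08, -1.76 and -1.54 and still called. Without ES_Empty replicate 1 the ES_Obox6 change was -1.47, and without ES_Obox6 replicate 2 it was -1.5, neither past the adjusted threshold, nor was it when those groups alone were fitted.

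Gadd45b (chr10:80930091-80932204) was the most abundant of the 3 in most libraries, at 3.91 to 18.4 TPM over the 19. It had 7.81 and 4.27 TPM in ES_Obox3, 7.06 and 6.95 in ES_Obox5, 6.38 and 5.59 in ES_Obox6, 3.91 and 5.29 in ES_Dux, and 16.6 and 11.7 in ES_Empty. The groups did not overlap with ES_Empty, but the call was made only in ES_Obox3 (-1.14 ± 0.28, adjusted p = 0.0164) and ES_Dux (-1.43 ± 0.28, 0.00207), and scaling removed both (-0.56 and -0.15). Leaving out the unnumbered ES_Obox3 library (-0.76) or ES_Empty replicate 1 (-0.90) also ended the ES_Obox3 call, as did fitting all genes without the filter.

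Gadd45g (chr13:51846675-51848475) stood at 1.40 and 1.97 TPM in ES_Obox3, 3.19 and 2.52 TPM in ES_Obox5, 2.11 and 2.59 TPM in ES_Obox6, 0.241 and 0 TPM in ES_Dux, and 0.916 and 0.350 TPM in ES_Empty. Every Obox library of these groups was above both ES_Empty libraries. Whole reads, which could be recovered from its TPM, were few, at 7 to 17 in the Obox libraries and 4 and 2 in ES_Empty. Gadd45g rose in ES_Obox5 (1.26 ± 0.26, adjusted p = 0.0144), a call lost without either ES_Obox5 library (1.13 without replicate 1 and 1.38 without the unnumbered library) or without ES_Empty replicate 2 (1.00). The changes of 0.73 in ES_Obox3 (adjusted p = 0.0605) and 1.05 in ES_Obox6 (0.0553) were not called, and scaling moved that of ES_Obox3 to 1.00, just past both thresholds (0.049). The ES_Obox5 call was also lost with a pseudocount of 0.1.

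Among the immediate early genes only Junb was well expressed. Junb (chr8:84976909-84978748) had 2.2 and 0.675 TPM in ES_Obox3, 2.07 and 2.18 TPM in ES_Obox5, 2.19 and 2.45 TPM in ES_Obox6, 0.780 and 0.443 TPM in ES_Dux, and 12.2 and 12.4 TPM in ES_Empty. The 2 ES_Empty libraries were nearly equal and stood far above the other 8. Junb reads were 17 and 9 in ES_Obox3, 16 and 20 in ES_Obox5, and 16 and 19 in ES_Obox6. They were 10 and 4 in ES_Dux, and 82 and 109 in ES_Empty. Junb fell in all 4 groups, by log2 fold changes of -2.52 ± 0.29 in ES_Obox3 (adjusted p = 0.000683), -2.09 in ES_Obox5 (0.00253), -2.0 in ES_Obox6 (0.00603) and -3.05 in ES_Dux (0.000193). It was the gene whose call held in all 4 groups after scaling, at -2.01, -1.75, -1.76 and -2.15. Fos (chr12:85473890-85477274), its AP-1 partner, ranged from 0.340 to 2.96 TPM over the 19 libraries, on 4 to 34 reads, and had 0.896 and 0.750 TPM in ES_Obox3, 2.58 and 1.17 in ES_Obox5, 1.89 and 0.695 in ES_Obox6, 0.660 and 0.340 in ES_Dux, and 1.37 and 0.872 in ES_Empty. Its changes lay between -0.50 and 0.41, were not called, and turned sign with scaling in ES_Obox3 (0.10) and ES_Dux (0.13). Egr1 (chr18:34861207-34864956) was at or under 0.504 TPM in every mESC library and was not tested.

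As deposited, levels of Atf3, Trib3 and the first Ddit3 gene lay above both ES_Empty libraries in all 6 ES_Obox3, ES_Obox5 and ES_Obox6 libraries. In both ES_Dux libraries they lay below the ES_Empty pair, in a group where 44.4% of all genes fell. The share of all genes with this order was not counted. Atf3 (chr1:191170296-191183333), a transcription factor that stress induces early, had 2.28 and 2.46 TPM in ES_Obox3, 4.99 and 5.86 TPM in ES_Obox5, 4.13 and 5.20 TPM in ES_Obox6, 0.655 and 0.743 TPM in ES_Dux, and 1.37 and 1.14 TPM in ES_Empty. No Obox library of these groups overlapped with ES_Empty. Atf3 rose in ES_Obox5 (1.51 ± 0.19, adjusted p = 0.00168) and ES_Obox6 (1.32 ± 0.19, 0.00586), with mean levels 4.32-fold and 3.71-fold those of ES_Empty, and scaling left these calls in place (1.6 and 1.31). The ES_Obox6 call was lost without ES_Obox6 replicate 2 (1.19) or ES_Empty replicate 2 (1.25), and when those groups alone were fitted. In ES_Obox3 the change of 0.58 (0.94 after scaling) stayed under the size threshold. In ES_Dux the change of Atf3, -0.41, was not called and turned positive after scaling.

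Ddit3 (ENSMUSG00000025408.15, chr10:127290793-127296291), which encodes the pro-apoptotic factor CHOP, had 18.9 and 13.6 TPM in ES_Obox3, 13.7 and 10.5 TPM in ES_Obox5, 14.7 and 10.8 TPM in ES_Obox6, 2.14 and 1.05 TPM in ES_Dux, and 5.57 and 7.28 TPM in ES_Empty. All Obox libraries were above and both Dux libraries below the ES_Empty pair. Ddit3 rose in ES_Obox3 (1.21 ± 0.28, adjusted p = 0.0139; 1.76 after scaling), and leaving out ES_Obox3 replicate 1 (0.99) or ES_Empty replicate 1 (1.04) ended that call. In ES_Obox5 and ES_Obox6 it changed by 0.82 and 0.88, not called, of which scaling turned the first into a call (1.06). In ES_Dux it fell (-1.54, adjusted p = 0.00161), but not after scaling (-0.47). The second Ddit3 gene had 25.7 and 21.3 TPM in ES_Obox3, 25.2 and 18.8 TPM in ES_Obox5, 17.3 and 14.5 TPM in ES_Obox6, and 3.84 and 18.2 TPM in ES_Empty. The ES_Empty libraries were far apart, and its changes in the Obox groups, 0.80 to 1.34, were not called. Without ES_Empty replicate 2 the ES_Obox3 change was 2.33 and called. In ES_Dux, at 2.02 and 0 TPM, it was called lower (-2.47, adjusted p = 0.0152), a call lost with scaling (-1.66), when those groups alone were fitted, without the unnumbered ES_Dux library (-1.68) and without ES_Empty replicate 2 (-1.48).

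Trib3 (chr2:152337425-152344060) had 21.5 and 14.8 TPM in ES_Obox3, 15.4 and 20.1 TPM in ES_Obox5, 14.2 and 12.9 TPM in ES_Obox6, 0.997 and 1.04 TPM in ES_Dux, and 12.4 and 10.3 TPM in ES_Empty. It fell in ES_Dux (-2.61 ± 0.22, adjusted p = 0.000131), with an 11.2-fold lower mean, and the fall of -1.59 after scaling was still called. In ES_Obox3 its change of 0.61 (adjusted p = 0.0648) became a call of 1.20 after scaling, while 0.60 in ES_Obox5 and 0.24 in ES_Obox6 were called in neither form.

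Hmox1 (chr8:75093618-75100593) had 9.23 and 6.35 TPM in ES_Obox3, 13.7 and 12.3 TPM in ES_Obox5, 26.7 and 19.2 TPM in ES_Obox6, 11 and 10.1 TPM in ES_Dux, and 33.4 and 29.2 TPM in ES_Empty, where it was the most abundant of the 10 genes. All 4 groups lay below ES_Empty without overlap, ES_Obox6 closest to it. Hmox1 fell in ES_Obox3 (-1.89 ± 0.23, adjusted p = 0.000808; -1.29 after scaling), ES_Obox5 (-1.20, 0.00976; -0.89 and not called after scaling) and ES_Dux (-1.49, 0.000723; -0.11 and not called after scaling). The ES_Obox5 call was also lost without either of its libraries (-1.28 and -1.13) or without ES_Empty replicate 1 (-1.11). In ES_Obox6 the change of -0.45 was not called.

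**Figure D2:**
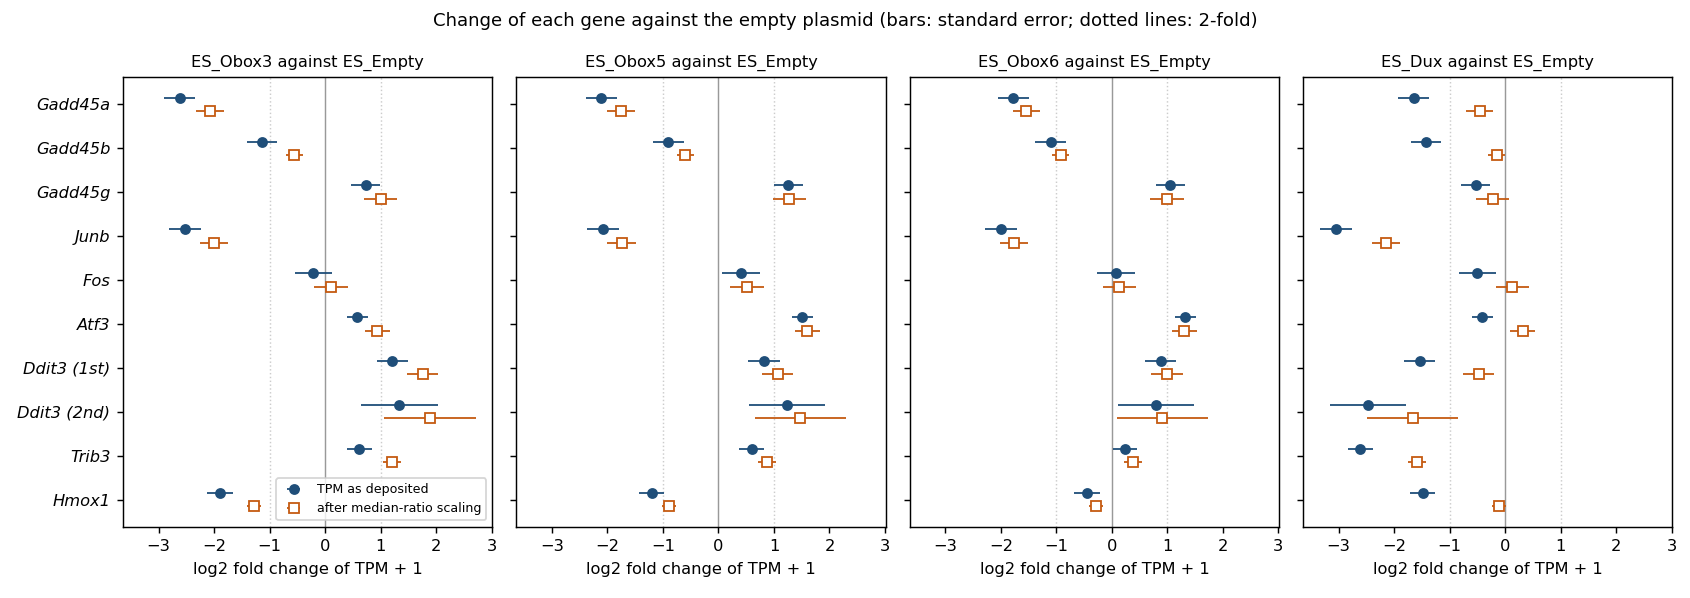
Log2 fold change of TPM + 1 against ES_Empty (horizontal axis) for the 10 genes tested (rows) in ES_Obox3, ES_Obox5, ES_Obox6 and ES_Dux, with bars for the standard error and dotted lines at a change of 1; Ddit3 (1st) is ENSMUSG00000025408.15 and Ddit3 (2nd) ENSMUSG00000116429.1, filled circles are the deposited TPM and open squares the values after median-ratio scaling. Scaling moves all values to the right in ES_Dux, where Junb (-2.15) and Trib3 (-1.59) stay past the call, and leaves the order of the genes in the Obox groups much as it was.

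The Obox plasmids were also compared with each other and with Dux. Between ES_Obox3 and ES_Obox5 0 of the 10 genes were called, before or after scaling. At an unadjusted p under 0.05 stood 2 of them before scaling and 3 after, and the share of all genes there was not counted. Few genes of any kind were called between these groups (0.0393% higher and 0.0147% lower, and 0.0688% and 0.0197% after scaling). Atf3 differed most, by -0.93 (95% interval -1.36 to -0.49, adjusted p = 0.225). Between ES_Obox3 and ES_Obox6, Hmox1 was lower (-1.45 ± 0.23, adjusted p = 0.00608; -1.01 after scaling). That was 1 of 10 genes, against 6.61% of all genes lower and 2.63% after scaling, and 0 of 10 were higher, against 2.52% and 4.83%. Against ES_Dux, 4 of the 10 genes were higher in ES_Obox3 (Gadd45g, both Ddit3 genes and Trib3), against 20.3% of all genes, and 0 were lower, against 3.42%. Trib3 differed by 3.23 ± 0.22 (adjusted p = 2.91e-05), with 17.9-fold the mean TPM. Ddit3 differed by 2.75 and 3.81 for its 2 genes and Gadd45g by 1.26. Atf3 stood at 0.99, just under the size threshold, and passed it without ES_Obox3 replicate 1 (1.02) or the unnumbered ES_Dux library (1.02). After scaling the same 4 were higher, against 9.21%, and Gadd45a (-1.62) and Hmox1 (-1.17) were lower, 2 of 10 against 8.3%. Median log2 fold changes of all genes were -0.22, -0.32 and 0.48 in these 3 comparisons. They share the ES_Obox3 libraries.

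Upstream sequences are shown for 6 genes called in at least 1 of the Obox groups, so that the stress elements in them can be seen. RefSeq promoter windows, 250 bases before to 50 bases after the annotated start on GRCm38.p6, were used for 8 of the 10 genes. Egr1 and Hmox1 were not searched. Both strands were searched for AP-1 (TGACTCA or TGAGTCA), the cyclic AMP response element (TGACGTCA), the amino acid response element bound by ATF4 (TGATGNAAN), the antioxidant response element bound by NRF2 (TGACNNNGC), the E-box (CACGTG), the CArG box bound by SRF, and the homeodomain word GGATTA. The 250 bases before the start are printed 5' to 3' on the gene's strand, with each match in capitals. Genes higher in at least 1 Obox group come first.
Atf3, chr1:191183334-191183583, minus strand: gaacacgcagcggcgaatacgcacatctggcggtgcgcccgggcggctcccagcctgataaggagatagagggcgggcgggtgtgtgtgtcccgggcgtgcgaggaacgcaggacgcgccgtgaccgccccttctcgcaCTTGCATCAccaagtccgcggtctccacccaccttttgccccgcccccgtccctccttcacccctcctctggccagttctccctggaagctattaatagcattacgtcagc
Gadd45g, chr13:51846425-51846674, plus strand: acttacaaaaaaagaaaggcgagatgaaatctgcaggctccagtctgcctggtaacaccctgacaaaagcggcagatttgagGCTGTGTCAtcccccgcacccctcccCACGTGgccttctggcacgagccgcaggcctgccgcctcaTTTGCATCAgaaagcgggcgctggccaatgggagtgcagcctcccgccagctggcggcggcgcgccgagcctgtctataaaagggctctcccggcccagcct
Ddit3, chr10:127290543-127290792, plus strand: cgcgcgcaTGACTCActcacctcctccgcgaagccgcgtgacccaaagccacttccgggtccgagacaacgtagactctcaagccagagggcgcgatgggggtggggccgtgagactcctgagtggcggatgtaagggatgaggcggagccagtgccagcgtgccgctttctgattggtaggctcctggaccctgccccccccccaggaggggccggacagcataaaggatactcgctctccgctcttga
Gadd45a, chr6:67037408-67037657, minus strand: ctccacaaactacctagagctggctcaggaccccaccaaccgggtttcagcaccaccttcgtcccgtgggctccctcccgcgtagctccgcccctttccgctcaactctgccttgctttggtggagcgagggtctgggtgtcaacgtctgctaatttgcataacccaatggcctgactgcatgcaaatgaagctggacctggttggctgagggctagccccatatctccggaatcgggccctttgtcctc
Gadd45b, chr10:80929841-80930090, plus strand: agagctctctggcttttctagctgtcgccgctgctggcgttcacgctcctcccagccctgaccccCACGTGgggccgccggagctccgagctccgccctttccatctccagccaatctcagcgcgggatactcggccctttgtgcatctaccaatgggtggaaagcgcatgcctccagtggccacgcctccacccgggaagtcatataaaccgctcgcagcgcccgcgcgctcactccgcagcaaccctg
Junb, chr8:84978749-84978998, minus strand: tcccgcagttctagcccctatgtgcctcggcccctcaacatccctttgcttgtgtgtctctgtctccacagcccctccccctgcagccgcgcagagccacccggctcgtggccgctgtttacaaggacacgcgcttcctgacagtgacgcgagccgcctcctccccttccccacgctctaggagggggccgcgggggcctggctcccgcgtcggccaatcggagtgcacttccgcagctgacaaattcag
Atf3 holds an amino acid response element on its opposite strand at bases -111 to -103 from the start, and Gadd45g holds one, also on the opposite strand, at -102 to -94. Gadd45g has in addition an E-box at -142 to -137 and an antioxidant response element at -168 to -160. Ddit3 holds an AP-1 word at -242 to -236. Among the genes that fell, Gadd45b holds an E-box at -185 to -180 and, past the printed stretch, the homeodomain word at 25 to 30 past the start, while the windows of Gadd45a and Junb hold none of the words. Nor does that of Fos, which was not called. Trib3 holds an amino acid response element on its opposite strand at 13 to 21 past the start. Of the 32851 promoter windows searched, 3.95% held the amino acid response element, 5.2% an AP-1 word, 7.15% an E-box and 12.4% an antioxidant response element. The homeodomain word was in 7.06%, the cyclic AMP response element in 1.79% and a CArG box in 1.63%. These are matches of letters in a short window and not binding sites.

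Genes of the same pathways, from lists written for this purpose, were read beside the 10. The lists were chosen with earlier results of these data known, so they are no independent check. Of 29 other immediate early genes tested, 12 fell and 1 rose in ES_Obox3 (9 and 2 after scaling), with a median of -0.86 against -0.42 for all genes. Of all genes, 13.6% fell and 4.67% rose there (3.75% and 7.77% after scaling). Myc, a growth transcription factor, averaged 1.69 TPM in ES_Obox3 and 15.2 TPM in ES_Empty (-2.60, adjusted p = 0.000203). Ier2, another growth factor response gene, fell, with 8.33 TPM in ES_Obox3 and 54.7 TPM in ES_Empty (-2.58, 0.000134), as did the TGF-beta inducible factor Klf10 (-2.39). In ES_Obox5, 11 fell and 1 rose (7 and 2 after scaling), against 5.47% and 4.79% of all genes (2.39% and 6.09%), Myc again among them (-2.16), with the matricellular gene Ccn1 (-1.99) and Klf10 (-1.82). In ES_Obox6, 9 fell and 1 rose (6 and 1 after scaling), against 1.99% and 2.39% of all genes (1.32% and 2.8%). The gene that rose was Ier5, at 10.6 TPM in ES_Obox6 and 0.484 TPM in ES_Empty (2.98, adjusted p = 0.000507). In ES_Dux 22 fell and 0 rose, where 44.4% of all genes fell, and after scaling 4 fell, against 2.14%, among them the ERK phosphatase Dusp6 (-2.74, and -1.63 after scaling).

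Of 21 upstream regulators of these genes (SRF, its cofactors, CREB family members, MAP kinases and EGR corepressors), 6, 4 and 1 fell in ES_Obox3, ES_Obox5 and ES_Obox6 and 0 rose; after scaling 2, 2 and 0 fell and 1, 1 and 0 rose. The shares of all genes that fell in these groups were 13.6%, 5.47% and 1.99% (3.75%, 2.39% and 1.32% after scaling), and 1 of 21 in ES_Obox6 is near the share of all genes. The EGR corepressor Nab2 had 0.392 TPM in ES_Obox3 and 3.29 TPM in ES_Empty (-1.62, adjusted p = 0.00117; -1.20 after scaling). In ES_Dux 13 fell, beside 44.4% of all genes, and 0 after scaling.

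Of 26 further integrated stress genes tested, 5 rose and 4 fell in ES_Obox3 (6 and 0 after scaling), 3 rose and 1 fell in ES_Obox5 (3 and 0), and 2 rose and 1 fell in ES_Obox6 (2 and 0). Of all genes 4.67% rose and 13.6% fell in ES_Obox3, 4.79% and 5.47% in ES_Obox5, and 2.39% and 1.99% in ES_Obox6, so the 4 lower genes in ES_Obox3 are near the share of all genes. Nupr1, a chromatin-associated stress protein, averaged 32.4 TPM in ES_Obox3, 30.4 TPM in ES_Obox5, 19.8 TPM in ES_Obox6 and 5.35 TPM in ES_Empty, and rose by 2.38, 2.32 and 1.72. Ddit4, an inhibitor of mTORC1, rose by 1.95, 2.17 and 1.49. Ppp1r15a (GADD34), which restores translation by recruiting the eIF2alpha phosphatase, rose in ES_Obox5, with 56.8 TPM in ES_Obox5 and 19.4 TPM in ES_Empty (1.51, adjusted p = 0.0015). Atf4 was among 16 of the 26 that fell in ES_Dux, where 44.4% of all genes fell (-2.11, and -0.69 and not called after scaling), where 2 rose and 0 fell after scaling. Of 17 chaperones and sensors of the unfolded protein response, 1 rose in ES_Obox3 and ES_Obox5 each, near the 4.67% and 4.79% of all genes. In both cases it was the ER cochaperone Dnajb9 (1.35 and 1.5). In ES_Obox6 0 were called (3 at an unadjusted p under 0.05). In ES_Dux 10 fell, beside 44.4% of all genes (0 after scaling).

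Of 20 NRF2 and heme genes tested, 10 fell and 1 rose in ES_Obox3 (4 and 2 after scaling), 4 fell and 1 rose in ES_Obox5 (2 and 1), and 1 fell and 0 rose in ES_Obox6 (1 and 1). The share of all genes that fell was 13.6% in ES_Obox3 (3.75% after scaling), 5.47% in ES_Obox5 (2.39%) and 1.99% in ES_Obox6 (1.32%). The share that rose was 4.67% in ES_Obox3 (7.77% after scaling), 4.79% in ES_Obox5 (6.09%) and 2.39% in ES_Obox6 (2.8%). The 1 gene higher in ES_Obox3 and in ES_Obox5 is thus near the share of all genes. Hmox1 thus fell beside sulfiredoxin, Srxn1, which averaged 2.44 TPM in ES_Obox3 and 18.6 TPM in ES_Empty (-2.50), the quinone reductase Nqo1 (-2.26) and Nfe2l2, the gene for NRF2 (-1.91). These 3 stayed called in ES_Obox3 after scaling (-1.92, -1.65 and -1.32). Bach1, a repressor of Hmox1 and of other NRF2 targets, rose in ES_Obox5, with 43.4 TPM in ES_Obox5 and 11.2 TPM in ES_Empty (1.88, adjusted p = 0.0016). Its part in the fall of Hmox1 was not tested. In ES_Dux 15 of the 20 fell, beside 44.4% of all genes, and 0 after scaling. Of 17 Gadd45 partners and growth arrest genes, 2 fell in ES_Obox3, near the 13.6% of all genes that fell there. They were Trp53 (-1.33) and the p53 target Cdkn1a (-1.05), and neither was called after scaling. In ES_Obox5 1 rose, Ddit4l (1.10), near the 4.79% of all genes, and 0 were called in ES_Obox6 (3 at an unadjusted p under 0.05). In ES_Dux 13 fell, beside 44.4% of all genes (0 lower and 1 higher after scaling).

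The cells also differed in markers. The summed TPM of the 10 mESC markers was 1075 to 1422 in ES_Obox3, 1571 to 1625 in ES_Obox5, 1518 to 1706 in ES_Obox6, 947 to 1010 in ES_Dux and 2191 to 2548 in ES_Empty. The 11 markers of the 2-cell stage summed to 5919 to 6596 TPM in ES_Dux and to at most 23.9 TPM elsewhere, and 10 trophoblast markers to 43.8 to 47.0 TPM in ES_Obox3, 45.5 to 54.7 TPM in ES_Obox5, 70.3 to 99.7 TPM in ES_Obox6, 9.37 to 13.3 TPM in ES_Dux and 23.7 to 28.8 TPM in ES_Empty. Fibroblast markers summed to at most 3.81 TPM in every mESC library. Their part in the changes above was not tested, and in bulk RNA fewer cells of a kind and less RNA per cell cannot be told apart.

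The 9 other constructs had 1 library each, so these are values with no test. They are differences of log2(TPM + 1) from the ES_Empty mean. Obox8 gave the widest departures. Gadd45g had 13.5 TPM, on 77 reads, in ES_Obox8, the highest of the 19 libraries, against 0.916 and 0.350 TPM in ES_Empty (3.17; 2.96 after scaling). Gadd45a had 2.67 TPM there, against 12.5 and 7.91 TPM in ES_Empty (-1.58; -1.56 after scaling). Ddit3 (ENSMUSG00000025408.15) reached 13 TPM (0.93), Fos 2.96 TPM (0.91) and Trib3 18.6 TPM (0.67), each above both ES_Empty libraries. Junb (8.61 TPM, -0.46) and Hmox1 (28.0 TPM, -0.15) were close to the ES_Empty mean there. Obox8 itself stood at 2465 TPM.

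In the other 8 single libraries 4 values passed 1 in size. The second Ddit3 gene accounted for 3 of them (-1.22 in ES_Obox1, -1.99 in ES_Obox2 and 1.28 in ES_Obox7), and its 2 ES_Empty libraries themselves stood at 3.84 and 18.2 TPM. The fourth was Gadd45g in ES_Crxos1 (2.24 TPM on 12 reads, 1.01), which fell under 1 after scaling (0.88). Gadd45a, Gadd45b, Junb, Fos, Atf3, Trib3 and Hmox1 stayed within 1 of ES_Empty in all 8, with Junb lowest in ES_Obox4ps27 (6.63 TPM, -0.80) and Atf3 highest there (3.36 TPM, 0.95). The share of all 23428 genes past 1 upwards was 3.6% in ES_Obox1, 3.49% in ES_Obox2, 4.61% in ES_Obox4ps27, 3.62% in ES_Obox4ps35, 7.03% in ES_Obox7, 6.98% in ES_Obox8, 4.32% in ES_Crxos1, 4.03% in ES_Crxos2 and 7.57% in ES_Crxos3. Downwards it was 3.84%, 3.28%, 3.14%, 4.29%, 2.7%, 3.17%, 2.38%, 2.81% and 1.86% in the same order. Of the 10 genes, 1 was past 1 upwards and 1 downwards in ES_Obox8, 1 downwards in ES_Obox1 and in ES_Obox2, 1 upwards in ES_Obox7 and in ES_Crxos1, and 0 in the rest.

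**Figure D3:**
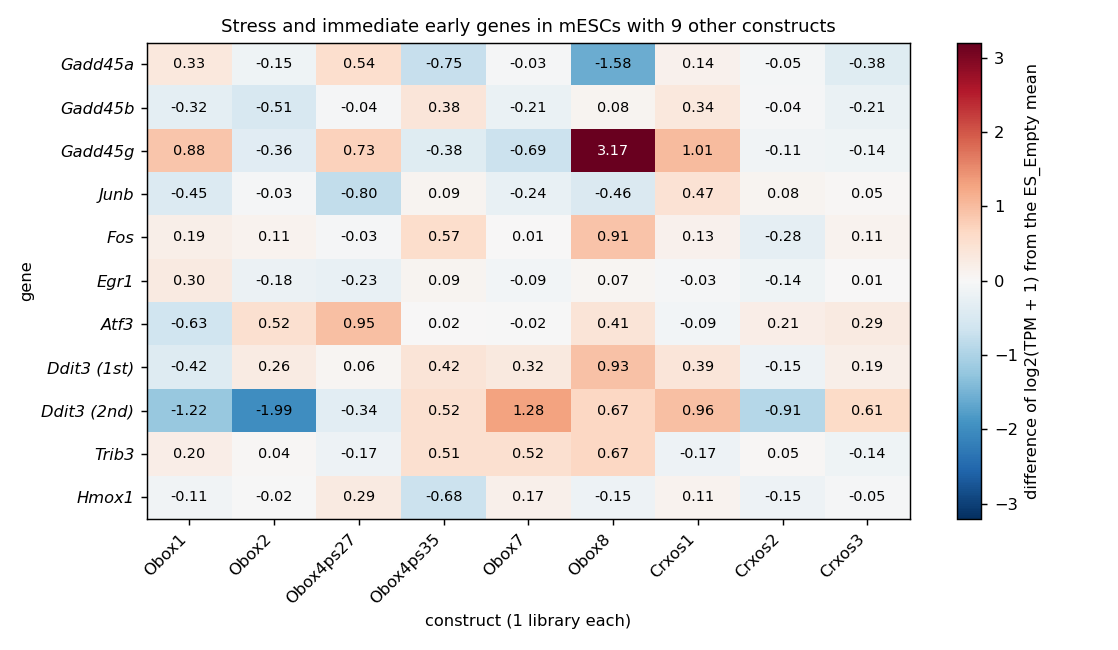
Difference of log2(TPM + 1) from the ES_Empty mean (colour and printed value) for each gene (rows) in the 9 constructs with 1 library each (columns). Obox8 stands out with Gadd45g at 3.17 and Gadd45a at -1.58, and the second Ddit3 gene varies most among the rest.

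Over the 19 mESC libraries the pattern of each gene was matched with all 8370 genes that averaged at least 5 TPM, by Pearson's r of scaled log2(TPM + 1), as a description. The libraries share 2 controls and the 4 replicated plasmids set most of the variation. Gadd45a was most like Spry4, a MAP kinase feedback inhibitor (r = 0.97), and Twf1 (0.96), and Junb was most like Tfeb (0.94) and Patz1 (0.93). Hmox1 was nearest to Cdx1 (0.95) and Laptm5 (0.94), and Trib3 to Kif11 (0.96) and Zbtb43 (0.95). Ddit3 (ENSMUSG00000025408.15) was nearest to Clcn6 (0.94) and Slc37a3 (0.92), and the second Ddit3 gene to Zbtb17 (0.91) and the first Ddit3 gene (0.84). The nearest genes of Gadd45g were Wdr6 (0.88) and Mus81 (0.84), those of Atf3 Eva1a (0.87) and Yy1 (0.87), those of Gadd45b Armc10 (0.86) and Rps6ka6 (0.85), and those of Fos Twf2 (0.76) and Scpep1os (0.75). Among the 10 genes themselves, Gadd45a went with Hmox1 (0.83) and against Ddit3 (-0.87), and Ddit3 went with Trib3 (0.79).

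The embryos had another starting point. Gadd45b (48.1 to 120 TPM), Trib3 (30.3 to 43.9 TPM) and Gadd45a (16.4 to 65.4 TPM) were abundant in all 6 libraries, Egr1 was at 5.77 to 8.24 TPM, and Fos and Atf3 were under 1 TPM throughout. Atf3 was listed at 0 in 5 of the 6. In SCNT_EGFP_L2C against ICSI_L2C, 2 of 8 genes rose (Gadd45g and Hmox1), against 4.8% of all genes, and 2 fell (Gadd45a and Gadd45b), against 12.5%. After scaling 3 rose, against 6.1%, and 1 fell, against 8.82%. The median log2 fold change was 0.05 for the 8 genes and -0.20 for all genes.

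Gadd45g had 7.10 and 9.29 TPM in SCNT_Obox3_L2C, 33.3 and 24.4 TPM in SCNT_EGFP_L2C, and 2.41 and 1.01 TPM in ICSI_L2C. The 3 groups did not overlap, and the libraries rested on 116 and 86, 377 and 293, and 21 and 6 reads in that order. Gadd45g rose in SCNT_EGFP_L2C against ICSI_L2C by 3.49 ± 0.31 (adjusted p = 0.00216; 3.63 after scaling), with 16.8-fold the mean TPM. It also rose in SCNT_Obox3_L2C against ICSI_L2C by 1.80 ± 0.31 (adjusted p = 0.0193), with 4.78-fold the mean, but leaving out either SCNT_Obox3_L2C library (1.97 and 1.63) or ICSI_L2C replicate 2 (1.42), or the filter on low values, ended that call.

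Hmox1 had the same order of groups, at 3.07 and 3.98 TPM in SCNT_Obox3_L2C, 9.40 and 8.77 TPM in SCNT_EGFP_L2C, and 1.16 and 1.13 TPM in ICSI_L2C. It rose in SCNT_EGFP_L2C against ICSI_L2C by 2.23 ± 0.22 (adjusted p = 0.00254; 2.36 after scaling), a mean 7.96-fold that of ICSI_L2C. In SCNT_Obox3_L2C against ICSI_L2C it rose by 1.07 ± 0.22 (adjusted p = 0.0286), a call lost without the filter, with those groups alone fitted, and when any 1 of the 4 libraries was left out (0.93 to 1.22).

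Gadd45a and Gadd45b ran the other way. Gadd45a had 32.5 and 35.6 TPM in SCNT_Obox3_L2C, 16.4 and 23.9 TPM in SCNT_EGFP_L2C, and 43.0 and 65.4 TPM in ICSI_L2C, again without overlap. It fell in SCNT_EGFP_L2C against ICSI_L2C (-1.38 ± 0.27, adjusted p = 0.0146; -1.16 and still called after scaling). Gadd45b had 59.6 and 65.3 TPM in SCNT_Obox3_L2C, 48.1 and 61.2 TPM in SCNT_EGFP_L2C, and 107 and 120 TPM in ICSI_L2C, with both SCNT groups below ICSI. It fell in SCNT_EGFP_L2C (-1.05 ± 0.18, adjusted p = 0.011), a call lost after scaling (-0.83). Both calls were lost without SCNT_EGFP_L2C replicate 1 (Gadd45a -1.12, Gadd45b -0.88) or ICSI_L2C replicate 2 (-1.08 and -0.96). Against ICSI_L2C, SCNT_Obox3_L2C differed by -0.63 for Gadd45a and -0.85 for Gadd45b, not called.

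Ddit3 (ENSMUSG00000025408.15) had 13.2 and 14.4 TPM in SCNT_Obox3_L2C, 27.9 and 27.7 TPM in SCNT_EGFP_L2C, and 16.3 and 13.6 TPM in ICSI_L2C. Only the EGFP clones stood apart, by 0.86 ± 0.17 against ICSI_L2C (adjusted p = 0.0164), under the size threshold, and by 1.06 after scaling, a call. The second Ddit3 gene had 16.4 and 13.3 TPM in SCNT_Obox3_L2C, 22.8 and 37.1 TPM in SCNT_EGFP_L2C, and 30.8 and 29.8 TPM in ICSI_L2C, a different order. Trib3 had 42.9 and 43.9 TPM in SCNT_Obox3_L2C, 30.3 and 38.9 TPM in SCNT_EGFP_L2C, and 40.8 and 42.5 TPM in ICSI_L2C. Egr1 had 6.48 and 6.05 TPM in SCNT_Obox3_L2C, 7.73 and 7.97 TPM in SCNT_EGFP_L2C, and 5.77 and 8.24 TPM in ICSI_L2C. Neither Trib3 nor Egr1 was called in any comparison. Junb was not tested, but 1 library stood apart: SCNT_EGFP_L2C replicate 1 had 3.78 TPM (66 reads), replicate 2 of that group 0.216 TPM (4 reads), and the other 4 libraries 0.0700 to 0.522 TPM. Fos (0.924 TPM, 21 reads) and Atf3 (0.288 TPM, 6 reads) were also highest in that library.

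**Figure D4:**
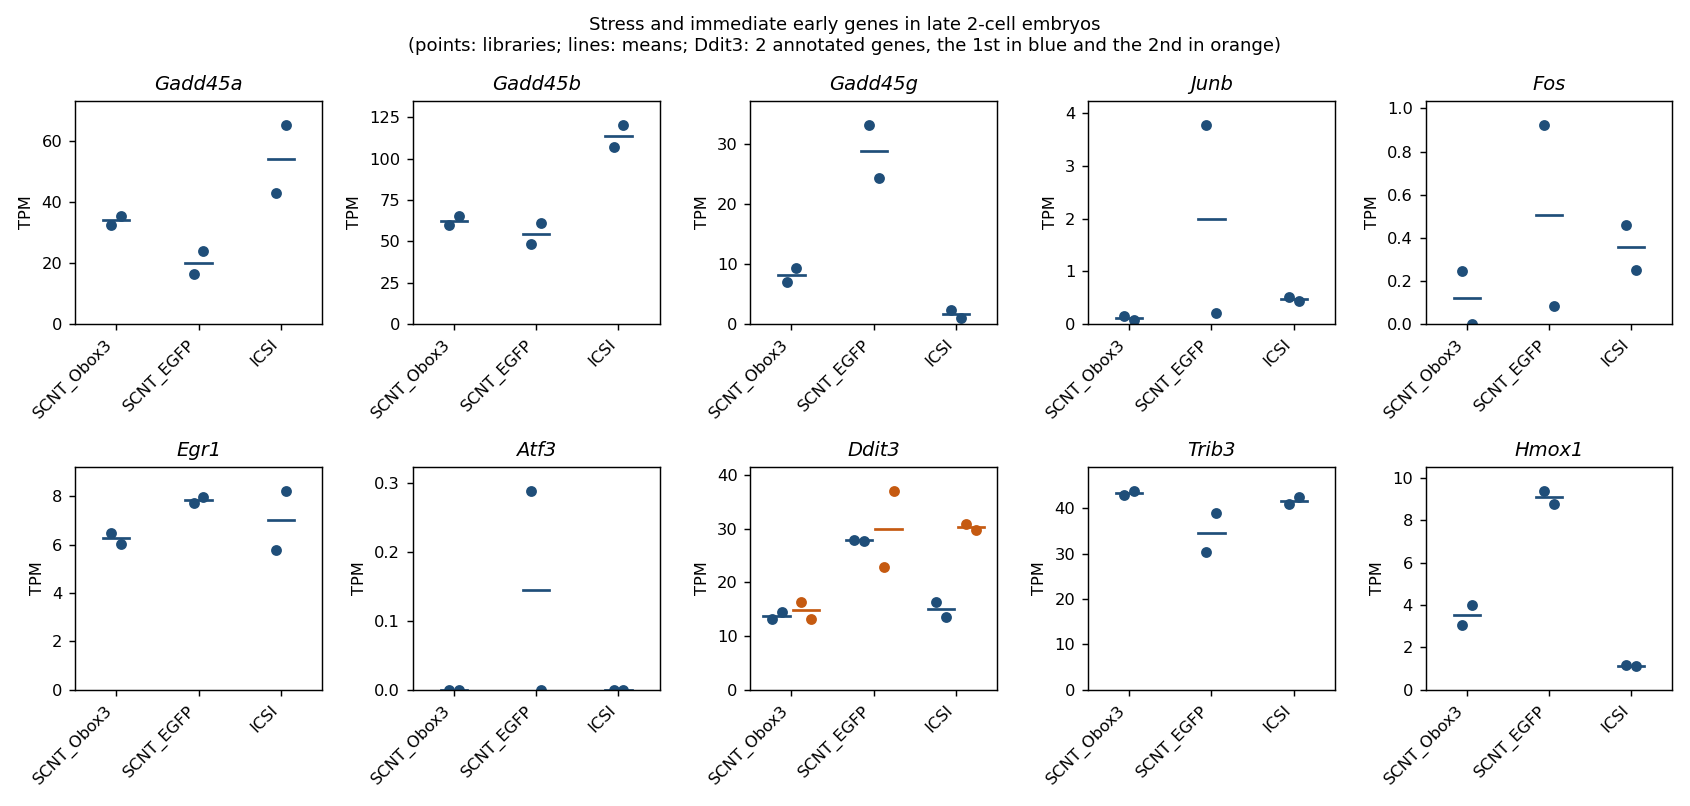
TPM (vertical axis, linear, from 0) of each gene in the 3 late 2-cell embryo groups (horizontal axis), with a point per library and a line at the mean of the 2. Gadd45g and Hmox1 are highest in SCNT_EGFP_L2C and lowest in ICSI_L2C with SCNT_Obox3_L2C between them, and Gadd45a shows the opposite order.

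Between SCNT_Obox3_L2C and SCNT_EGFP_L2C, which share the cloning procedure and differ in the injected mRNA, 0 of 8 genes were called in limma, before or after scaling. At an unadjusted p under 0.05 there were 5 before scaling and 6 after, and the share of all genes at that p was not counted. Of all genes 0.11% were called higher and 0.0438% lower, and 1.41% and 0.175% after scaling. The changes were -1.69 for Gadd45g (95% interval -2.45 to -0.94, adjusted p = 0.0895), -1.16 for Hmox1 (-1.69 to -0.64, 0.0895), -0.96 for Ddit3 (-1.37 to -0.55, 0.0864), -0.94 for the second Ddit3 gene (adjusted p = 0.14) and 0.75 for Gadd45a (adjusted p = 0.218). The median over the 8 genes was -0.61, and -0.03 over all genes. Against ICSI_L2C, 2 of 8 genes rose in SCNT_Obox3_L2C, against 2.8% of all genes, and 0 fell, against 6.31%. After scaling the counts were the same, against 4.05% and 3.85%, and the median of all genes was -0.22 before it. The 3 embryo comparisons share libraries in pairs, so their values are given side by side and were not compared further.

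The pathway lists in embryos are read against the shares of all genes. In SCNT_EGFP_L2C against ICSI_L2C 4.8% rose and 12.5% fell (6.1% and 8.82% after scaling), and in SCNT_Obox3_L2C against ICSI_L2C 2.8% rose and 6.31% fell (4.05% and 3.85%). Of 19 NRF2 and heme genes tested, 3 rose and 0 fell in SCNT_EGFP_L2C against ICSI_L2C (5 and 0 after scaling). The NRF2 target Txnrd1, a thioredoxin reductase, averaged 18.5 TPM in SCNT_EGFP_L2C and 2.84 TPM in ICSI_L2C (2.36, adjusted p = 0.0023). The glutathione transferase Gsta4 rose by 2.31 and the ferritin light chain Ftl1 by 2.23, at 136 TPM in SCNT_EGFP_L2C and 28.4 TPM in ICSI_L2C. In SCNT_Obox3_L2C against ICSI_L2C 4 rose and 1 fell (4 and 0 after scaling), the same 3 among them (1.71, 2.22 and 2.16). Of 26 integrated stress genes, 3 rose and 7 fell in SCNT_EGFP_L2C (3 and 4 after scaling). Those that rose were Nupr1 (15.7 TPM in SCNT_EGFP_L2C and 1.38 TPM in ICSI_L2C, 2.86), asparagine synthetase Asns (2.21) and the serine synthesis enzyme Psph (1.97). In SCNT_Obox3_L2C 3 rose and 3 fell (4 and 2 after scaling), with Asns at 2.01 and Nupr1 at 1.77.

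Of 26 immediate early genes tested in embryos, 3 rose and 4 fell in SCNT_EGFP_L2C (4 and 4 after scaling), beside 4.8% and 12.5% of all genes, among them the kinase Pim1 (16.8 TPM in SCNT_EGFP_L2C and 95.3 TPM in ICSI_L2C, -2.44), the survival gene Mcl1 (-1.81) and Dusp6 (4.67 TPM in SCNT_EGFP_L2C and 0.298 TPM in ICSI_L2C, 2.12). In SCNT_Obox3_L2C 1 rose and 6 fell (1 and 4 after scaling), beside 2.8% and 6.31% of all genes, with the antiproliferative gene Btg1 at -2.30 and Pim1 at -1.84. Of 17 unfolded protein genes 1 rose (the ER chaperone Hsp90b1, 1.64) and 2 fell in SCNT_EGFP_L2C (1 and 1 after scaling). The counts before scaling are near the 4.8% and 12.5% of all genes. In SCNT_Obox3_L2C 0 were called, with 5 at an unadjusted p under 0.05, and after scaling 1 was higher and 0 lower. Of 16 Gadd45 partners 0 rose and 4 fell in SCNT_EGFP_L2C (1 and 1 after scaling), beside 4.8% and 12.5% of all genes, led by Ddit4l (-3.17). In SCNT_Obox3_L2C 1 rose, Cdkn1a (1.14), and 1 fell (1 and 0 after scaling), beside 2.8% and 6.31% of all genes. Of 20 upstream regulators 1 fell in each comparison with ICSI_L2C, not above the share of all genes (12.5% and 6.31%). In both cases it was the p38 kinase Mapk14 (-1.14 in SCNT_EGFP_L2C and -1.18 in SCNT_Obox3_L2C). After scaling 2 and 1 rose and 0 fell. Between SCNT_Obox3_L2C and SCNT_EGFP_L2C limma called 0 genes of the 6 lists. At an unadjusted p under 0.05 stood 11 of 26 immediate early, 2 of 20 upstream regulator and 9 of 26 integrated stress genes. So did 5 of 17 unfolded protein, 6 of 19 NRF2 and heme, and 5 of 16 Gadd45 partner genes. The share of all genes at that p was not counted. After scaling 1 unfolded protein gene was called higher.

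Markers of the donor cell type were low in all embryos. The 14 cumulus markers summed to 6.22 and 3.78 TPM in SCNT_Obox3_L2C, 5.52 and 5.24 TPM in SCNT_EGFP_L2C, and 2.89 and 4.28 TPM in ICSI_L2C, with 1 to 6 of them at 0 per library. Ptx3 was at 0 in all 6 libraries. Fshr, the receptor for follicle stimulating hormone, had 0.0304 and 0.0537 TPM in SCNT_Obox3_L2C and 0 TPM in the other 4. Foxl2 had 0.0220 and 0.0778 TPM in SCNT_Obox3_L2C, 0.159 and 0.0901 TPM in SCNT_EGFP_L2C, and 0 TPM in both ICSI_L2C libraries. Vcan had 0.824 and 0.420 TPM in SCNT_Obox3_L2C, 0.702 and 0.433 TPM in SCNT_EGFP_L2C, and 0.0326 and 0.0683 TPM in ICSI_L2C. Foxl2 and Vcan were thus higher in every cloned library than in either ICSI library, as were Ptgs2 and Cyp11a1. How many of all genes show this order was not counted. Tnfaip6, Hsd3b1, Star, Cyp19a1, Amh, Inhba and Has2 overlapped between cloned and ICSI libraries. Tnfaip6 was highest in ICSI_L2C replicate 2 (1.62 TPM), and Inha was above 0 in SCNT_Obox3_L2C replicate 2 alone. Foxl2 was at or under 0.159 TPM, where 1 read on a gene of 1 kb gives 0.0718 to 0.198 TPM. Fibroblast markers summed to at most 1.29 TPM. The 11 transcripts of the 2-cell stage summed to 234 and 337 TPM in SCNT_Obox3_L2C, 154 and 212 TPM in SCNT_EGFP_L2C, and 762 and 544 TPM in ICSI_L2C. ICSI libraries were highest and EGFP clones lowest, without overlap. The part of these markers in the changes of the stress genes was not tested.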

How the data were processed

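Stranded total RNA libraries were made with a SMART-seq kit, per the labels' protocols. Per the file headers, the authors deposited TPM for each gene, and every column sums to the same total. Among the tools in the submitters' processing notes are HISAT2, featureCounts 1.6.5 and the mm10 build, with no role for each. Which annotation and strand setting were used, and how reads with several positions were counted, is not given in the sources used here. The mESC and embryo tables were normalised apart and tested apart.

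Columns were matched to samples by name. In ES_Obox3, ES_Obox5 and ES_Dux 1 column each carried a number that no label has and served as an unnumbered member of its group. Nothing ties replicates to separate cultures or collections, so the p-values cover the spread among these libraries alone, and that spread may be technical. Replicates correlated across genes at 0.951 to 0.971, and 0 pairs were identical.

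limma 3.58.1 in R 4.3.3 was run on log2(TPM + 1) with trend and robust moderation, on genes with at least 1 TPM in at least 2 libraries fitted: 20355 genes over 10 mESC libraries (5 residual degrees of freedom) and 18252 over 6 embryo libraries (3). All replicated groups of a table shared 1 spread. The worth of 1 read in each library was the commonest TPM times length among small RNA genes and pseudogenes of known length. Reads of a gene were recovered where 1 gene length made its counts even steps in every library, within 0.01. The steps were whole reads, except for Gadd45a, where they were smaller than 1 read. Depth of the other genes is unknown. The genes and lists were chosen with earlier results of these data known. Named genes were the 10, up to 3 called genes of largest change per list, and the 2 genes nearest in pattern. The alternatives were median-ratio scaling, a pseudocount of 0.1, no filter, only the compared groups, each library left out, and a replicate block.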

Additional observations from a re-analysis of the deposited data

How the results depend on the processing

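The number of stress and immediate early genes called stayed within 1.5 times of its value in 68 of 85 alternative fits. That number adds higher and lower calls, and fits where it stayed at 0 are among the 68. In ES_Obox3 against ES_Empty the count was 5, and 3 to 6 with 1 library left out. In ES_Obox5 it was 5, and 3 to 4. In ES_Obox6 it was 3, and 1 to 3, with 1 when those groups alone were fitted. In ES_Dux scaling left 2 of 7. For ES_Obox3 against ES_Obox6 a pseudocount of 0.1 gave 2 in place of 1, adding Gadd45a (-1.37). For SCNT_EGFP_L2C against ICSI_L2C the count was 4, and 2 to 4 with 1 library left out. For SCNT_Obox3_L2C against ICSI_L2C it was 2, and 0 without the filter, 1 with those groups alone and 0 to 1 with 1 library left out. The cause was not tested. Groups of 2 libraries limit the precision, as do few reads for Fos, Gadd45g and Atf3. Gadd45a and Junb also had few reads in the ES_Obox3, ES_Obox5, ES_Obox6 and ES_Dux libraries.

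Same-numbered deviations correlated weakly, at 0.014 to 0.0666 in embryos and 0.0457 in ES_Obox6 and ES_Empty. With 2 libraries a group, such values cannot show whether the replicate numbers pair the samples. A replicate block gave 0 calls in ES_Obox6 against ES_Empty, ending those of Gadd45a, Junb and Atf3, where the fit on the same libraries without the block, chosen after seeing the data, gave 1. The block left 4, 0 and 2 calls in SCNT_EGFP_L2C against ICSI_L2C, SCNT_Obox3_L2C against SCNT_EGFP_L2C and SCNT_Obox3_L2C against ICSI_L2C.

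Direction turned in uncalled results. With median-ratio scaling the log2 change of Fos became 0.10 in ES_Obox3 and 0.13 in ES_Dux, and that of Atf3 0.31 in ES_Dux. In ES_Obox3 against ES_Dux, Gadd45b became -0.41 and Fos -0.032. In ES_Obox3, Gadd45b became 0.044 against ES_Obox5 and 0.36 against ES_Obox6, where Gadd45g became 0.0046. The second Ddit3 gene became 0.16 in SCNT_EGFP_L2C, and Egr1 0.10 and the first Ddit3 gene 0.13 in SCNT_Obox3_L2C, against ICSI_L2C. With 1 library left out, Fos ran from -0.31 to 0.46 and the second Ddit3 gene from -0.19 to 1.80 in ES_Obox6 against ES_Empty. Gadd45b ran from -0.077 to 0.67 in ES_Obox3 against ES_Dux. Against ES_Obox5, ES_Obox3 ran from -0.60 to 0.14 for Gadd45b, -0.90 to 0.036 for Junb, -0.10 to 0.30 for the second Ddit3 gene and -0.24 to 0.27 for Trib3. Against ES_Obox6 it ran from -0.40 to 0.34 for Gadd45b and -0.67 to 0.10 for Fos. Against ICSI_L2C, Egr1 ran from -0.062 to 0.39 and the second Ddit3 gene from -0.39 to 0.28 in SCNT_EGFP_L2C, and Egr1 from -0.35 to 0.10 and the first Ddit3 gene from -0.22 to 0.016 in SCNT_Obox3_L2C.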
